A study of Mus musculus with 12 samples.

Results

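Cells respond to unfolded proteins in the endoplasmic reticulum (ER) and to amino acid shortage through a shared set of genes, and 36 of these genes were followed here in mouse bone marrow neutrophils cultured with bile acids. Of the 29737 genes in the deposited table of read counts, all 36 were found by name, and all 36 were among the 16761 genes with enough counts to be tested. The genes belong to the unfolded protein response and the integrated stress response, and the set was chosen by the measured level of *Ddit3*, which had been seen to be higher with Tβ-MCA in these same samples. Their differences between Tβ-MCA and PBS are therefore given as a description, without p values, and p values are given only for TCA against PBS, GCA against PBS and GCA against TCA.

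Wild-type (WT) mouse neutrophils from bone marrow were cultured for 24 h with PBS as control, with 200 μM TCA (taurocholic acid), with 200 μM GCA (glycocholic acid) or with Tβ-MCA (tauro-β-muricholic acid), and mRNA was sequenced. The labels give 10 μM for Tβ-MCA, while the methods of the study give 200 μM, so the dose of this group is uncertain. Each of the 4 groups had 3 samples, whose numbers in the labels are 3, 5 and 6 for PBS and 3, 4 and 5 for TCA, GCA and Tβ-MCA. All groups shared genotype, medium with fetal bovine serum and culture time, and no sample from before the culture was analysed here. The labels describe cells that carried Ly6G, whereas the methods name a separating medium followed by an enrichment kit, and neither source gives the number of mice or says whether samples came from separate mice. Among the Tβ-MCA samples replicate 5 stood nearer to PBS than replicates 3 and 4, and values without it are given beside the results.

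The unfolded protein response starts from 3 sensors in the ER membrane. IRE1 (encoded by *Ern1*) splices the mRNA of the transcription factor XBP1, ATF6 is cut in the Golgi to release a transcription factor that raises ER chaperones, and PERK (*Eif2ak3*) phosphorylates the translation factor eIF2α, which lowers protein synthesis but favors translation of ATF4. The kinase GCN2 (*Eif2ak4*) reaches ATF4 from uncharged tRNA, and ATF4 raises *Ddit3*, which encodes CHOP. IRE1 and XBP1 are known for their place in granulocyte and secretory cell development, where much protein enters the ER. The 36 genes were divided by textbook role into an IRE1-XBP1 arm of 12 genes, an ATF6 arm of 13 genes and a PERK-ATF4 arm of 11 genes, although many targets answer to more than 1 arm. Gene counts do not report XBP1 splicing, ATF6 cleavage or eIF2α phosphorylation.

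The promoters of these genes hold short motifs by which the arms are usually recognised, and the sites that bear on the results are printed first. The ER stress response element (ERSE, the letters CCAAT and CCACG with 9 bases of any kind between them) is the site known for ATF6 with NF-Y, ERSE-II (ATTGG and CCACG with 1 base between them) is a shorter form of it, and the CARE (TGATGNAA) is the site known for ATF4 with its C/EBP partners. RefSeq promoters of GRCm38.p6, from 250 bases before to 50 bases after the RefSeq start of the gene, were found for 31 of the 36 members and were searched on both strands. An ERSE was present in 8 of these 31 members, against 0.137% of 27025 genes with a promoter in the same table. An ERSE-II was present in 2 members, *Dnajb11* and *Herpud1*, against 0.0444% of genes, and a CARE in 4 members, *Asns*, *Chac1*, *Herpud1* and *Trib3*, against 4.51%. The letters TGACGTGG of an XBP1 site (UPRE) were in none of the 31 windows and in 0.714% of genes. The printed windows of 30 bases do not overlap each other, the capitals mark the motif, and the strand given is the strand printed. The ERSE windows belong to ER chaperones that differed in how far they were lower with Tβ-MCA:
Hspa5 ERSE, chr2:34772020-34772049, plus strand: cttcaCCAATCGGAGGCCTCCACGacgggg
Canx ERSE, chr11:50325794-50325823, minus strand: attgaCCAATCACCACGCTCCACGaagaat
Hsp90b1 first ERSE, chr10:86705632-86705661, minus strand: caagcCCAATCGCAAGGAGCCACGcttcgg
Hsp90b1 second ERSE, chr10:86705527-86705556, plus strand: aactcaCCAATCGTGCCTCACCACGcactc
Calr ERSE, chr8:84847069-84847098, plus strand: tatgggCCAATGAGGGTCGACCACGcgttg
Pdia6 ERSE, chr12:17266486-17266515, plus strand: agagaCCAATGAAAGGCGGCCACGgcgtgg
The other windows belong to genes that were higher with Tβ-MCA and to *Asns*, a textbook target of ATF4:
Herpud1 ERSE-II, chr8:94386368-94386397, plus strand: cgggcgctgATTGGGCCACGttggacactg
Herpud1 CARE, chr8:94386306-94386335, minus strand: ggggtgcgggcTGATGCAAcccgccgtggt
Trib3 CARE, chr2:152344028-152344057, plus strand: ccccgcccggcTGATGTAAacctgagctaa
Asns CARE, chr6:7693214-7693243, minus strand: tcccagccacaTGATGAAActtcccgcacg
The RefSeq starts that set these windows can differ from the gene starts of the deposited table given below, so no distance to a start is given. The CARE of *Chac1*, the ERSE-II of *Dnajb11* and the ERSE of *Creld2*, *Dnajc3* and *Syvn1* are not printed. With Tβ-MCA against PBS, the log2 fold changes of *Chac1* and *Dnajb11* were -0.10 and -0.06. Their samples overlapped with PBS, so a CARE or ERSE-II was not limited to higher genes. The values of *Creld2*, *Dnajc3* and *Syvn1* were -0.14, -0.20 and -0.07, and none was called. A match gives the letters only, and no binding of ATF6 or ATF4 was measured.

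Neutrophils cultured with PBS already had high levels of the folding genes, as levels per length show. The members had a median of 18.9 RPKM (deposited read counts scaled by exon length and by library size), while the median of all genes tested was 3.18 RPKM. The ATF6 arm had a median of 63.9 RPKM, the IRE1-XBP1 arm of 10.6 RPKM and the PERK-ATF4 arm of 8.65 RPKM. *Calr*, encoding the calcium-binding lectin chaperone calreticulin, had the highest level at 374 ± 25.6 RPKM (SD, n = 3), followed by *Hsp90b1*, encoding the ER HSP90 chaperone GRP94, at 264 ± 2.43 RPKM. Next were *P4hb*, encoding protein disulfide isomerase, at 123 ± 3.64 RPKM and *Atf4* at 119 ± 6.13 RPKM, whose samples overlapped. *Ddit3* at 50.7 ± 5.33 RPKM and *Xbp1* at 49.4 ± 4.06 RPKM stood next to each other and overlapped too. Of the 35 pairs of neighbors in the order, 20 overlapped between their PBS samples. The sensors were lower, with *Eif2ak3* at 20.7 RPKM, *Ern1* at 6.19 RPKM, *Atf6* at 3.93 RPKM and *Eif2ak4* at 2.37 RPKM. *Trib3*, encoding a pseudokinase that restrains ATF4 signaling, was lowest at 1.02 ± 0.11 RPKM.

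**Figure D1:**
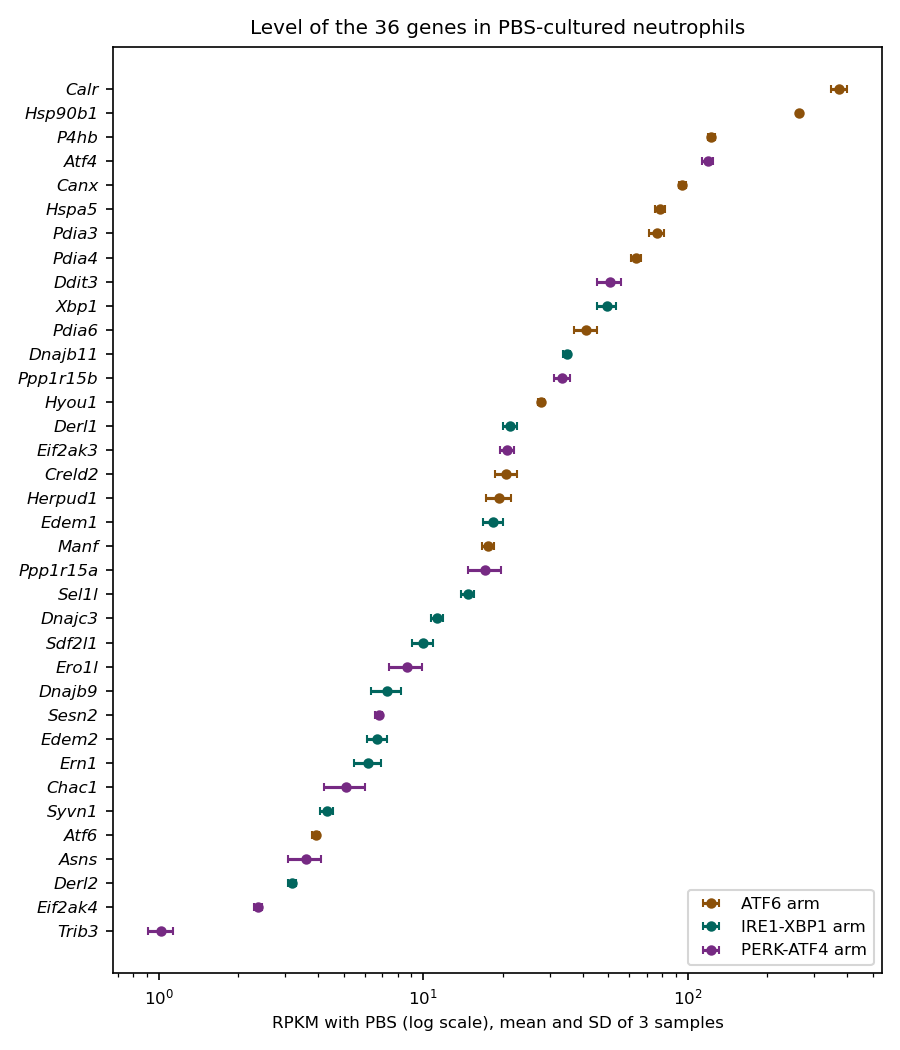
Level of each of the 36 genes with PBS in deposited RPKM on a log scale, as the mean and SD of 3 samples, colored by arm. The ATF6 arm holds most of the high levels, from Calr at 374 RPKM down, and Trib3 is lowest at 1.02 RPKM.

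With Tβ-MCA, the folding genes of the ATF6 arm and *Xbp1* were mostly lower than with PBS, while *Ddit3*, *Trib3*, *Hyou1* and *Herpud1* were higher and *Atf4* mRNA overlapped with PBS. Of the 36 members, 10 had an adjusted p under 0.05 in edgeR's quasi-likelihood test (27.8%), 4 higher and 6 lower, where 7.62% of all genes tested did. By direction, 4.44% of all genes were called higher and 3.18% lower. Since the members were picked with this contrast known, the counts describe them and test nothing. In the ATF6 arm 2 genes were called higher and 5 lower of 13, in the PERK-ATF4 arm 2 were called higher and 0 lower of 11, and in the IRE1-XBP1 arm 0 were called higher and 1 lower of 12. The median log2 fold change was -0.38 in the ATF6 arm, -0.08 in the IRE1-XBP1 arm and -0.01 in the PERK-ATF4 arm, beside 0.00 over all genes tested. The changes were small, and no member passed the fold change of 2 with an unadjusted p under 0.05, which 2.95% of all genes did.

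The calls depended on single samples. Without Tβ-MCA replicate 5, 17 members were called, 4 higher and 13 lower, where 18% of all genes were. Without Tβ-MCA replicate 3 or 4, or without PBS replicate 3 or 5, 0 members and 0 genes were called, with 14 to 17 members at an unadjusted p under 0.05 (19 with all samples, where 24.9% of all genes were), and without PBS replicate 6 only *Pdia4* was called. The samples of Tβ-MCA and PBS did not overlap for 16 members (44.4%), 5 higher and 11 lower, where 27% of all genes tested did not overlap, 14.1% higher and 12.8% lower.

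**Figure D2:**
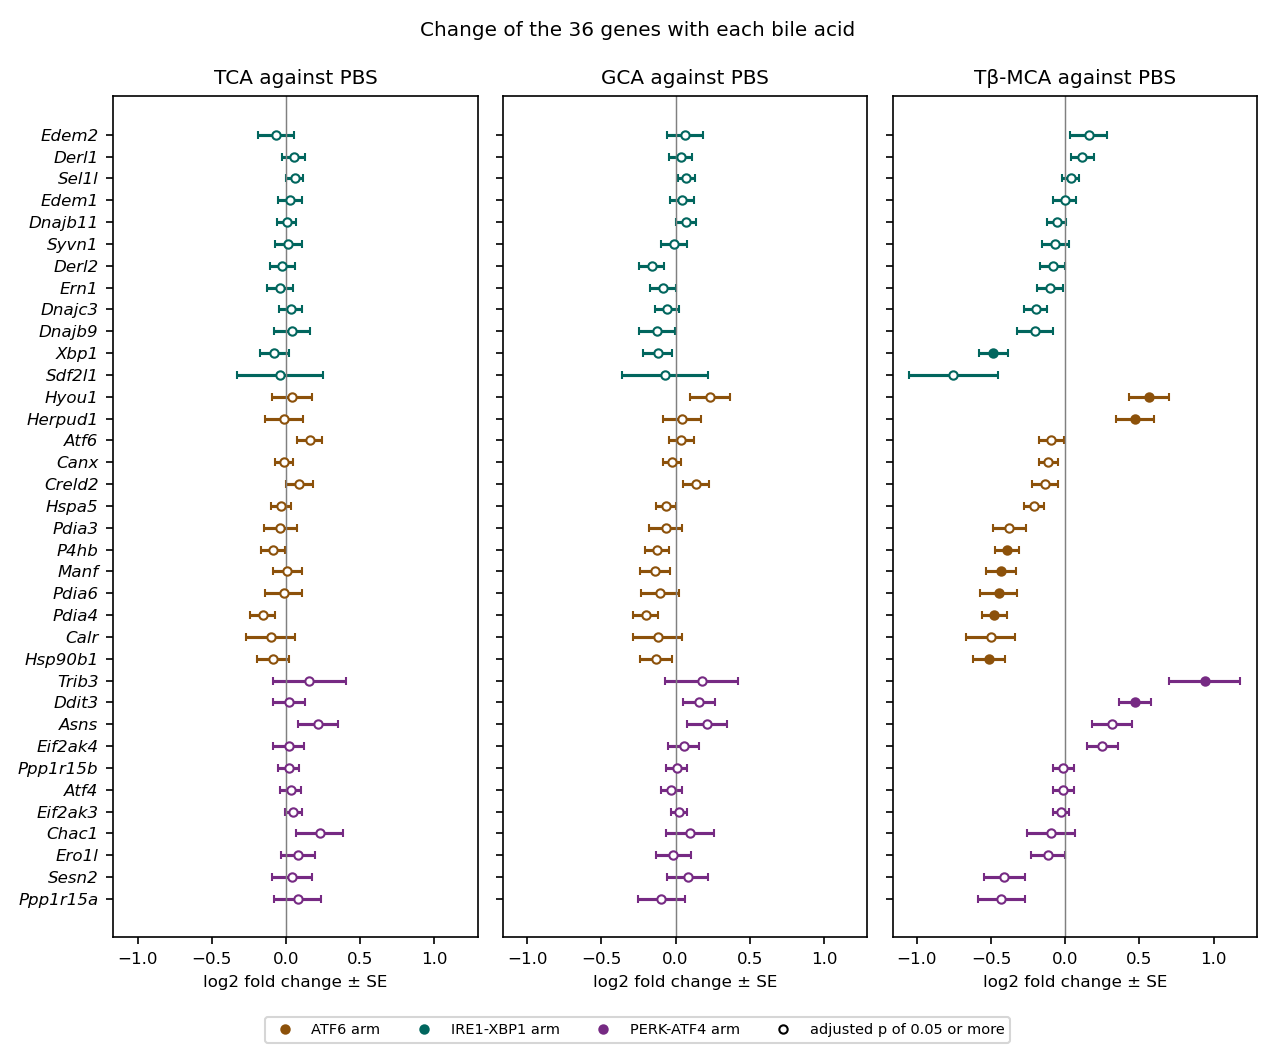
Log2 fold change with its SE for the 36 genes with TCA, GCA and Tβ-MCA against PBS, ordered within each arm by the change with Tβ-MCA; filled points had an adjusted p under 0.05. Filled points, 10 in all, are found only in the panel of Tβ-MCA, and the values for TCA and GCA lie between -0.20 and 0.23.

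In the PERK-ATF4 arm, the sensors and *Atf4* differed little while the downstream genes went in different directions. *Atf4* (chromosome 15, 80255184 to 80257540, plus strand), the central factor of the integrated stress response, had 211, 217 and 194 CPM (counts scaled to library size, which allow samples but not genes to be compared) with PBS and 196, 221 and 198 CPM with Tβ-MCA. These samples overlapped, and the log2 fold change was -0.01 ± 0.07 (SE). *Eif2ak3* had 119, 128 and 131 CPM with PBS and 120, 125 and 126 CPM with Tβ-MCA, a log2 fold change of -0.03 ± 0.06. *Eif2ak4* had 17.7, 18.5 and 17.4 CPM with PBS and 22.9, 20.6 and 20.2 CPM with Tβ-MCA. All its Tβ-MCA samples were above all PBS samples, but the log2 fold change of 0.25 ± 0.11 was not among the calls.

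*Ddit3* (chromosome 10, 127290774 to 127296288, plus strand) encodes CHOP, a C/EBP family factor known for its part in cell death after long ER stress. It had 79.2, 96.4 and 88.1 CPM with PBS, 95.8, 87.0 and 84.4 CPM with TCA, 85.4, 105 and 104 CPM with GCA and 116, 141 and 108 CPM with Tβ-MCA. Each Tβ-MCA sample was above every other sample, with replicate 5 only slightly above the highest of GCA. The level with Tβ-MCA was 38.5% above PBS, a log2 fold change of 0.47 ± 0.11. The set was chosen by this rise of *Ddit3*, so its calls in other fits of the same samples are a description and lend it no support. It was called in 13 of the 20 other fits, and it was not called with the replicate number as a block, at 0.42. *Ddit3* shares 68 of 1713 exonic bases with *Mars*, which lies on the opposite strand, and the strand setting of the counting is not given in the sources used here.

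*Trib3* (chromosome 2, 152337422 to 152344032, minus strand), a known target of ATF4 and CHOP, had the largest log2 fold change of the members called, 0.94 ± 0.24. It had 2.01, 2.15 and 2.43 CPM with PBS and 4.25, 5.26 and 3.13 CPM with Tβ-MCA. These groups did not overlap, and the level was low in both. With TCA *Trib3* had 2.98, 2.08 and 2.33 CPM. With GCA it had 1.91, 3.435 and 2.1 CPM, and GCA replicate 4 was above Tβ-MCA replicate 5. The amino acid gene *Asns*, encoding asparagine synthetase, had 9.69, 8.74 and 11.4 CPM with PBS and 11.3, 14.1 and 11.6 CPM with Tβ-MCA, which overlapped, with a log2 fold change of 0.31 ± 0.14. Other targets of the arm were on the lower side. *Sesn2*, encoding the leucine sensor sestrin 2, had a log2 fold change of -0.41 ± 0.14, and *Ppp1r15a*, encoding the stress-induced subunit GADD34 that directs dephosphorylation of eIF2α, one of -0.43 ± 0.16, and neither was called. *Ppp1r15b*, encoding the constitutive counterpart of GADD34, *Chac1*, encoding a glutathione-degrading enzyme, and *Ero1l*, encoding an ER oxidase, had log2 fold changes between -0.12 and -0.01. The summed level of the arm was 743 to 780 CPM with PBS and 756 to 811 CPM with Tβ-MCA.

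**Figure D3:**
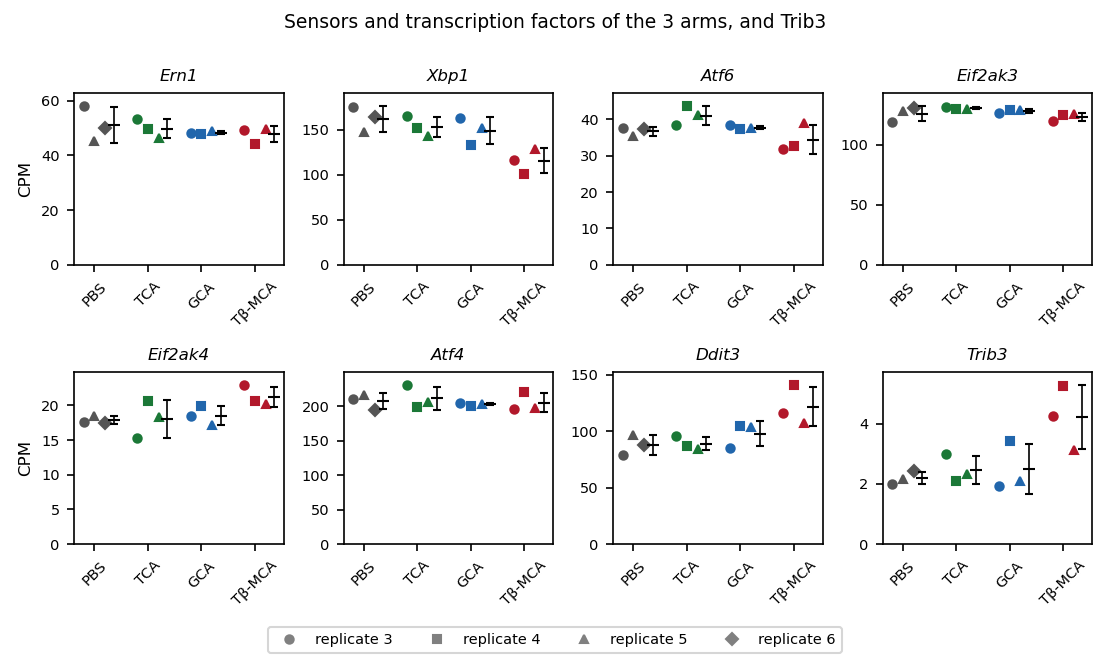
CPM in every sample for the sensors and transcription factors of the 3 arms and for Trib3, with the symbol giving the replicate number and the bar the mean and SD of each group; every axis starts at 0. Xbp1 is lower and Ddit3 and Trib3 are higher in all 3 Tβ-MCA samples than in all 3 PBS samples, and Atf4 overlaps.

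In the IRE1-XBP1 arm, *Xbp1* was the only member called. *Xbp1* (chromosome 11, 5520659 to 5525893, plus strand) had 176, 147 and 164 CPM with PBS, 165, 152 and 143 CPM with TCA, 163, 133 and 152 CPM with GCA and 117, 101 and 129 CPM with Tβ-MCA. The Tβ-MCA samples were below every sample of the other groups, and the log2 fold change was -0.49 ± 0.10. *Ern1*, the sensor that splices it, had 58.1, 45.3 and 50.2 CPM with PBS and 49.1, 44.4 and 49.8 CPM with Tβ-MCA, with overlap and a log2 fold change of -0.10 ± 0.09. Spliced and unspliced *Xbp1* mRNA are counted together.

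The targets placed in this arm differed little, with *Sdf2l1* as the exception in size. *Dnajb11*, an ER co-chaperone with the second highest level of the arm, had 117, 110 and 116 CPM with PBS and 110, 105 and 114 CPM with Tβ-MCA, which overlapped. *Dnajc3*, encoding the PERK-inhibiting co-chaperone p58IPK, did not overlap, at 57.0 to 62.4 CPM with PBS and 48.6 to 56.0 CPM with Tβ-MCA, and was not called at -0.20 ± 0.08. *Sdf2l1*, an ER protein that works with co-chaperones, had 10.2, 11.7 and 11.7 CPM with PBS and 3.77, 5.34 and 10.7 CPM with Tβ-MCA. Replicates 3 and 4 were far below PBS and replicate 5 lay within its range, so the log2 fold change of -0.75 ± 0.30 was not called, and without replicate 5 it was -1.29. The degradation genes *Edem1*, *Edem2*, *Sel1l*, *Syvn1*, *Derl1* and *Derl2*, which take misfolded proteins out of the ER, had log2 fold changes between -0.09 and 0.16 and overlapped with PBS. *Dnajb9*, a co-chaperone that is widely read as an XBP1 target, had -0.20 ± 0.12 and overlapped as well.

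The ATF6 arm, as divided by textbook role, held 7 of the 10 calls. The promoter motifs did not fully follow this division. An ERSE was found in *Dnajc3* and *Syvn1* of the IRE1-XBP1 arm, and none in *Pdia3*, *Pdia4* or *P4hb* of the ATF6 arm. *Atf6* itself overlapped, with 37.5, 35.3 and 37.3 CPM with PBS and 31.7, 32.6 and 38.8 CPM with Tβ-MCA. *Hsp90b1* (chromosome 10, 86690209 to 86705509, minus strand) had 1095, 1064 and 1075 CPM with PBS, 964, 1039 and 1041 CPM with TCA, 1029, 875 and 1047 CPM with GCA and 662, 682 and 921 CPM with Tβ-MCA. All Tβ-MCA samples were below PBS and TCA, replicate 5 was above 1 GCA sample, and the level against PBS fell by 0.51 ± 0.11 on the log2 scale. *Hsp90b1* shares exonic bases with 3 other genes of the table, 415 of 4032 with *1810014B01Rik* on the opposite strand. On the same strand it shares 133 bases with *Gm25745* and 84 with *Gm15344*. *Calr* had 1017, 1131 and 1123 CPM with PBS and 582, 719 and 1007 CPM with Tβ-MCA, with replicate 5 just below the lowest PBS sample. Its log2 fold change of -0.50 ± 0.17 was close to that of *Hsp90b1* but had a larger SE and was not called.

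The protein disulfide isomerases, which form and exchange disulfide bonds, were on the lower side, and 3 of the 4 in the arm were called. *Pdia4* had 164, 148 and 153 CPM with PBS and 101, 106 and 127 CPM with Tβ-MCA, and its log2 fold change was -0.48 ± 0.08. *P4hb* had 371, 344 and 352 CPM with PBS and 247, 250 and 314 CPM with Tβ-MCA, a log2 fold change of -0.40 ± 0.08. *Pdia6* had 140, 163 and 165 CPM with PBS and 96.7, 107 and 140 CPM with Tβ-MCA, a log2 fold change of -0.45 ± 0.13. These 3 were called and did not overlap, although *Pdia6* in Tβ-MCA replicate 5 and PBS replicate 3 were the same to 3 digits. *Pdia3*, the partner of the lectin chaperones, had 158 to 223 CPM with Tβ-MCA and 228 to 253 CPM with PBS and was not called at -0.38 ± 0.11. *Manf*, encoding a secreted ER stress protein, had 61.5, 60.6 and 65.7 CPM with PBS and 42.6, 42.2 and 54.2 CPM with Tβ-MCA and was called at -0.43 ± 0.10.

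The chaperone by which ER stress is usually read had a smaller log2 fold change than *Hsp90b1*, a difference that was not tested. *Hspa5* (chromosome 2, 34771970 to 34777547, plus strand), encoding BiP, had 331, 328 and 350 CPM with PBS and 264, 297 and 311 CPM with Tβ-MCA. The samples did not overlap and the log2 fold change was -0.21 ± 0.07, which was not called. *Canx*, encoding the membrane lectin chaperone calnexin, overlapped at 442 to 462 CPM with PBS and 392 to 452 CPM with Tβ-MCA, and so did *Creld2*, encoding another ER stress protein, at 26.0 to 30.8 CPM with PBS and 23.9 to 27.5 CPM with Tβ-MCA. The members with an ERSE in the promoter thus included genes called lower (*Hsp90b1*, *Pdia6*) and genes not called (*Hspa5*, *Calr*, *Canx*, *Creld2*, *Dnajc3*, *Syvn1*).

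Against the rest of the arm, *Hyou1* and *Herpud1* were higher with Tβ-MCA. *Hyou1* (chromosome 9, 44379490 to 44392369, plus strand), encoding the large ER chaperone ORP150 that works as an exchange factor for BiP, had 201, 204 and 207 CPM with PBS, 251, 198 and 179 CPM with TCA, 239, 258 and 221 CPM with GCA and 351, 312 and 242 CPM with Tβ-MCA. PBS samples were nearly equal, GCA samples lay above them, and Tβ-MCA replicate 5 lay within the range of GCA. The log2 fold change against PBS was 0.56 ± 0.13 with Tβ-MCA. *Herpud1* (chromosome 8, 94386438 to 94395377, plus strand), encoding a membrane protein of ER-associated degradation, had 40.8, 46.6 and 49.5 CPM with PBS and 64.8, 72.2 and 52.7 CPM with Tβ-MCA, a log2 fold change of 0.47 ± 0.13 without overlap. It had 43.34, 45.8 and 46.65 CPM with TCA and 39.22, 55.71 and 46.45 CPM with GCA, and GCA replicate 4 was above Tβ-MCA replicate 5.

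**Figure D4:**
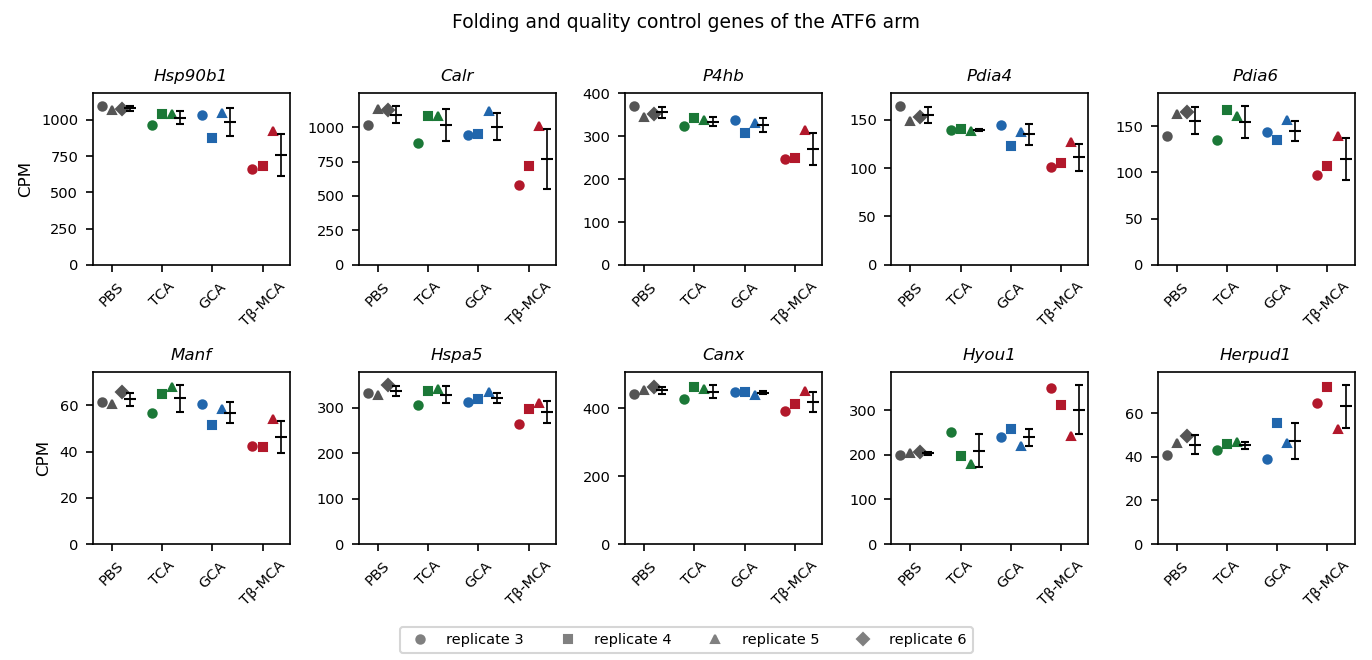
CPM in every sample for 10 of the 13 genes of the ATF6 arm, with the symbol giving the replicate number and the bar the mean and SD of each group; every axis starts at 0. Hsp90b1, P4hb, Pdia4, Pdia6 and Manf are lower and Hyou1 and Herpud1 higher with Tβ-MCA, and replicate 5 (triangle) lies closest to PBS.

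Tβ-MCA replicate 5 lay closest to the mean of PBS for all 10 called members and for 29 of the 36 members. The median size of the log2 difference from the PBS mean over the 10 called members was 0.58 in replicate 3, 0.64 in replicate 4 and 0.24 in replicate 5. Without replicate 5, the log2 fold change was -0.68 for *Hsp90b1*, -0.75 for *Calr*, -0.57 for *Xbp1*, 0.70 for *Hyou1*, 0.55 for *Ddit3* and 1.12 for *Trib3*. None of the 10 called members changed sign in any of the 20 other fits, in which *Trib3* ranged from 0.57 to 1.12 and *Ddit3* from 0.35 to 0.55. These fits use the samples with which the set was chosen, so they are a description too.

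Markers of other cells moved along with these genes in the same samples. The summed level of 12 monocyte and macrophage markers was 977 to 1003 CPM with PBS and 266, 320 and 764 CPM with Tβ-MCA replicates 3, 4 and 5. The summed level of the ATF6 arm in those samples was 3019, 3233 and 3909 CPM, against 4154 to 4323 CPM with PBS. All 12 monocyte markers had a lower mean with Tβ-MCA, none was called, and 4 had an unadjusted p under 0.05. *F13a1*, the marker with the highest level of that list, was at 519 to 584 CPM with PBS and at 54.7, 75.8 and 367 CPM with Tβ-MCA. The summed levels were 157 to 276 and 61.1 to 141 CPM for 8 eosinophil markers, and 204 to 271 and 123 to 166 CPM for 7 basophil and mast cell markers, with PBS and Tβ-MCA respectively. Of these lists *Siglecf* and *Hdc* were called lower. The myeloid progenitor gene *Mpo* went from 194 to 209 CPM with PBS to 32.3, 44.5 and 154 CPM, and 7 of 9 progenitor markers had a log2 fold change below 0, with 6 of 9 at an unadjusted p under 0.05 and a median of -0.78. Their summed level overlapped with PBS, and the proliferation gene *Mki67* made up most of it. The part of these cells in the lower chaperone genes was not tested, and in bulk RNA fewer cells of a type and less RNA per cell cannot be told apart.

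Neutrophil markers were abundant, as the label of the cells says, with *S100a9* highest at 17450 to 25490 CPM over all samples. The 15 neutrophil markers summed to 53170 to 65440 CPM with PBS and 43250 to 48770 CPM with Tβ-MCA, and *S100a8*, *Ly6g*, *Mmp9*, *Camp* and *Lcn2* were called lower. T and NK cell markers summed to at most 3.97 CPM in any sample. The 13 B cell and plasma cell markers summed to 49.0 to 65.4 CPM with PBS and 42.5 to 47.8 CPM with Tβ-MCA, with *Cd79a* called lower and 1 of them at 0 in all PBS samples. The 8 dendritic cell markers summed to 41.1 to 56.3 and 35.3 to 47.3 CPM, with *Bcl11a* called higher.

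**Figure D5:**
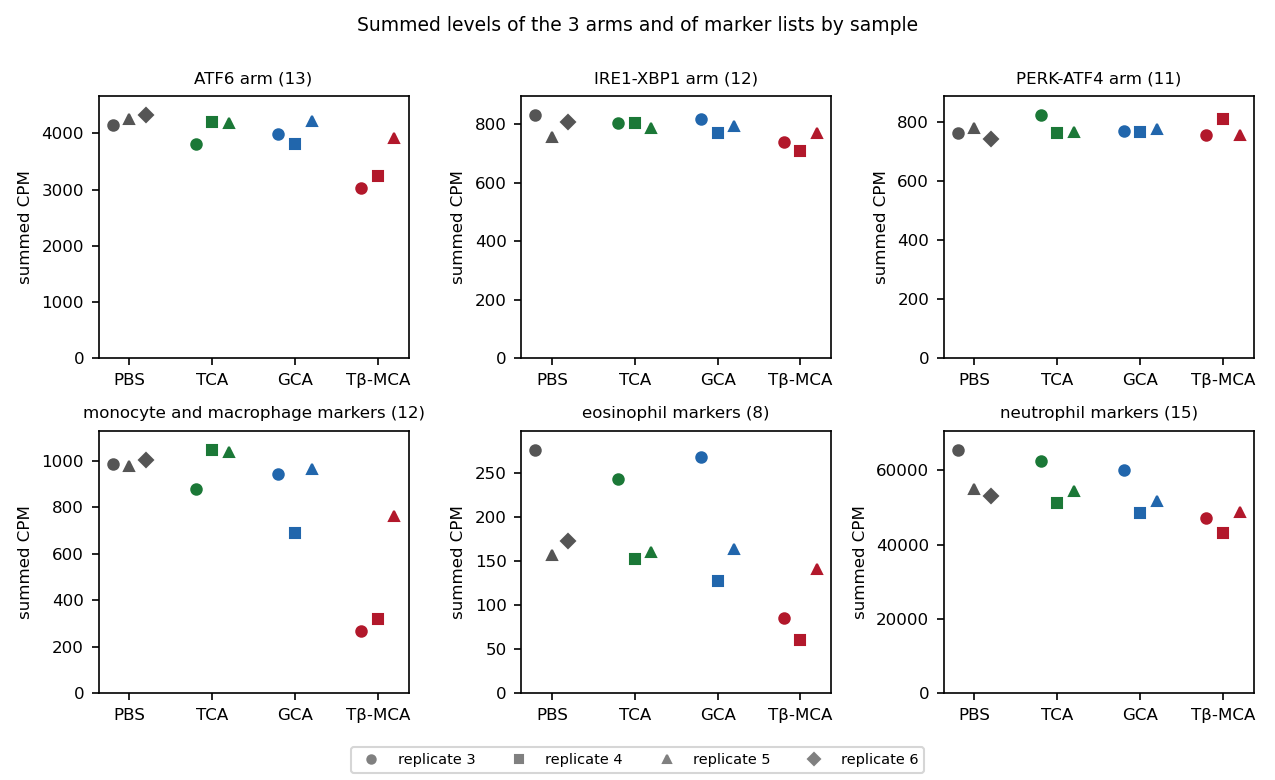
Summed CPM in every sample of the genes of each arm and of 3 marker lists, with the number of genes in brackets and the symbol giving the replicate number; every axis starts at 0. The ATF6 arm and the monocyte and macrophage markers are lowest in Tβ-MCA replicates 3 and 4 and nearer to PBS in replicate 5, and the PERK-ATF4 arm overlaps between groups.

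The other genes of the same pathways were followed in lists without the members, and their Tβ-MCA values are a description too. Of 48 further integrated stress response genes tested, 4 were called higher and 2 lower with Tβ-MCA, where 4.44% of all genes were called higher and 3.18% lower. Among the higher were *Sars*, encoding a tRNA synthetase, at a log2 fold change of 0.45, *Phgdh*, the first enzyme of serine synthesis, at 0.59, and *Impact*, an inhibitor of GCN2, at 0.75. *Slc38a2*, an amino acid transporter, at -0.46 and *Cebpg*, a partner of ATF4, at -0.45 were lower. The median of the list was -0.02.

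Of 39 further genes of the IRE1-XBP1 pathway, 34 had a log2 fold change below 0, where 8284 of the 16761 genes tested did. An unadjusted p under 0.05 was found for 13 of the 39, where 24.9% of all genes had one. Of the 39, 2 were called, both lower, where 3.18% of all genes were called lower. These were *Ssr4*, encoding a translocon-associated subunit, at -0.43 and *Rpn1*, encoding a subunit of the N-glycosylation enzyme, at -0.47, and the list had a median of -0.13. Of 27 further genes of ER-associated degradation none was called, with 8 at an unadjusted p under 0.05, which 24.9% of all genes had, and a median of -0.05. Of 41 further ATF6 and folding genes 0 were called higher and 4 lower, with a median of -0.08, among them *Fkbp2*, an ER prolyl isomerase, at -0.58, *Cnpy4*, at -0.46, and *Txndc5*, a disulfide isomerase, at -0.80. With TCA and with GCA, 0 genes of these 4 lists were called by edgeR, where 0 of all 16761 genes were called.

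With TCA and GCA no member passed the test against PBS. These comparisons and that of Tβ-MCA use the same 3 PBS samples. With TCA, 0 members were called by edgeR and 0 of all genes, 0 members had an unadjusted p under 0.05, where 3.26% of all genes did, and DESeq2 called 0 members. With GCA, 0 members were called by edgeR and 0 by DESeq2, where 0% of all genes were called by edgeR, and 1 member, *Pdia4*, had an unadjusted p under 0.05. Its log2 fold change with GCA was -0.20 ± 0.08 (edgeR quasi-likelihood test, adjusted p = 0.999), with 144, 122 and 138 CPM against 164, 148 and 153 CPM with PBS, which did not overlap. Of all genes, 3.53% had such a p with GCA. The members' log2 fold changes lay between -0.16 and 0.23 with TCA and between -0.20 and 0.23 with GCA. For *Ddit3* the 95% interval was -0.21 to 0.25 with TCA and -0.07 to 0.39 with GCA, and for *Atf4* it was -0.12 to 0.18 and -0.18 to 0.12.

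The groups did not overlap for 4 members with TCA (11.1%, background 9.67%), *Atf6* higher (background 4.91%) and *Hsp90b1*, *P4hb* and *Pdia4* lower (background 4.76%). They did not overlap for 5 members with GCA (13.9%, background 9.55%), *Hyou1* higher (background 4.71%) and *Hsp90b1*, *Manf*, *P4hb* and *Pdia4* lower (background 4.83%). Both shares over all members were near the background, and none of these members was called. They were all placed in the ATF6 arm. This split rests on few genes, and *Hsp90b1*, *P4hb* and *Pdia4* were the same in both comparisons. In that arm of 13 genes the share was 30.8% with TCA and 38.5% with GCA, and in the other arms it was 0%. *Hsp90b1*, *P4hb* and *Pdia4* were lower without overlap with Tβ-MCA as well. All these comparisons use the same PBS samples, and the shares by arm were not tested. The monocyte and macrophage markers summed to 877 to 1045 CPM with TCA and 689 to 965 CPM with GCA, and their part in these values was not tested. The 11 genes of the PERK-ATF4 arm all had a log2 fold change above 0 with TCA, from 0.02 to 0.23, with a median of 0.05 and no call. The median SE of these 11 values was 0.12, and 8407 of the 16761 genes tested were above 0 with TCA. With GCA 8 of the 11 genes were above 0.

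TCA and GCA, which carry the same cholic acid joined to taurine or to glycine, were given at the same dose and time and form the only matched pair of bile acids here. No member differed between GCA and TCA in edgeR's quasi-likelihood test (36 members tested, lowest adjusted p = 0.9998) and 0 had an unadjusted p under 0.05, where 0% of all genes were called and 2.46% had such a p. The log2 differences, GCA minus TCA, lay between -0.18 and 0.19. The 95% intervals extended by 0.21 to either side at the median, and the widest reached -0.67, for *Sdf2l1*. Differences within the interval of a gene are not excluded with 3 samples, and the width differed by gene, with an SE of 0.06 for *Eif2ak3* and 0.29 for *Sdf2l1*. For *Ddit3* the difference was 0.14 with an interval of -0.09 to 0.37.

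Tβ-MCA, a taurine conjugate of muricholic acid, cannot be matched to TCA and GCA by dose with certainty. The values against these groups use the same 3 Tβ-MCA samples as those against PBS. Against TCA 5 members were called (13.9%, background 3.51%), *Ddit3* higher at 0.45 (background 2.22%) and *Hsp90b1* (-0.43), *Manf* (-0.44), *Xbp1* (-0.41) and *Pdia4* (-0.32) lower (background 1.29%), and 20 had an unadjusted p under 0.05, where 22.2% of all genes did. Against GCA 0 members and 0 genes (0%) were called by edgeR, while 15 members and 2598 genes had an unadjusted p under 0.05 and DESeq2 called 3 members. With the replicate number as a block, 4 members were called lower against GCA, *Xbp1*, *Pdia3*, *Ppp1r15a* and *Sesn2*, where 1.98% of all genes were called. The log2 fold change against GCA was 0.31 for *Ddit3*, 0.76 for *Trib3*, -0.37 for *Xbp1* and -0.38 for *Hsp90b1*. Without Tβ-MCA replicate 5, 18 members were called against TCA and 15 against GCA, where 15.3% and 9.57% of all genes were. Against TCA, 0 were called when any 1 TCA sample, Tβ-MCA replicate 3 or 4, or PBS replicate 5 or 6 was left out.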

How the data were processed

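RNA-seq of 12 cultures was analysed. Per the labels and the methods of the study, the authors trimmed reads with Trimmomatic 0.36 and mapped them to GRCm38; the submitters' processing notes also name STAR 2.5.3a and featureCounts of Subread 1.5.1. The authors deposited raw counts per gene and RPKM values. Total counts were 32757389 to 41375925 per sample (TMM factors 0.972 to 1.03), and 3 counts, taken as the limit of detection, were 0.073 to 0.092 CPM, for counting error only. The library kit marked strand, but the counting setting is not given in the sources used here.

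Counts of all 12 samples were fitted with edgeR 4.0.16 (R 4.3.3): filterByExpr by group, TMM, robust quasi-likelihood test, 6 comparisons, Benjamini-Hochberg adjustment over 16761 genes, adjusted p under 0.05. The methods of the study name edgeR with cutoffs of 0.05 for p and 2 for the fold change, and these cutoffs were an alternative. The others were DESeq2 1.42.0, limma 3.58.1 on log2(RPKM + 1) or log2(RPKM + 0.1) for genes with a mean RPKM of at least 0.5, a fit restricted to the groups of a comparison, a minimum of 10 counts per sample, no filter, library totals in place of TMM, the replicate number as a block, and each sample left out in turn. CPM values use TMM-scaled library sizes. Levels between genes were compared in deposited RPKM.

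The members and gene lists were chosen with earlier results of these data known. All members are accounted for; values per sample are given for sensors, transcription factors, members called in any comparison and the 2 members of each arm with the highest RPKM with PBS, and for some further members chosen after their values were seen. From the other pathway lists up to 3 called genes per direction with the lowest p are named, and from marker lists the genes called and the gene with the highest level where a result turned on it. Nothing says that samples came from separate mice, so p values measure the spread between these samples, which may be technical. Replicates differed by far more than counting noise, so none was counted as a duplicate. Samples with the same number correlated in their deviations from the group means, with r from 0.06 to 0.33 and a mean of 0.19. For different numbers the mean was -0.07. All 3 pairs were above 0.1 only between Tβ-MCA and GCA, and PBS had only 2 such pairs with each other group. The main fits did not use the numbers as pairs, and the numbers were a block only in an alternative. Of the 36 members, 11 share exonic bases with another gene. The fits were tested on simulated data with independent samples and fold changes of 2 and more. No member reached a fold change of 2 in the main fits, so that test does not cover changes of their size.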

Additional observations from a re-analysis of the deposited data

How the results depend on the processing

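The numbers of members called depended on the samples and the tool, and the share of all genes called under the same setting stands in brackets. Against PBS, Tβ-MCA had 10 members called (7.62%). DESeq2 called 16 (6.84%), limma 6 with either pseudocount (6.17% and 4.94%), the fit restricted to the groups of a comparison 0 (0%, with 18 members at an unadjusted p under 0.05), and the rule of unadjusted p and a fold change of 2 called 0 (2.95%). Leaving out 1 sample gave 0 to 17 members (0% to 18%). No filter gave 15 (8.09%). The replicate block gave 11 (8.94%), of which 9 were shared with the 10, since *Ddit3* was lost and *Pdia3* and *Ppp1r15a* were gained. Against TCA, Tβ-MCA had 5 members called (3.51%), which became 15 with no filter (6.98%), 0 with the restricted fit (0.447%), 17 with the replicate block (13.9%), 14 with DESeq2 (5.23%), 0 with limma for either pseudocount (0%) and 0 with the fold change of 2 (2.79%), and 0 to 18 when 1 sample was left out (0% to 15.3%). These counts were 0 without any of the TCA samples, without Tβ-MCA replicate 3 or 4, and without PBS replicate 5 or 6, 1 without GCA replicate 5, 9 without GCA replicate 4 and 18 without Tβ-MCA replicate 5. Against GCA, Tβ-MCA had 0 members called (0%), but 15 with no filter (4.05%), 4 with the replicate block (1.98%), 3 with DESeq2 (0.985%) and 0 to 15 when 1 sample was left out (0% to 9.57%). The cause of these differences was not tested, except that fits without a sample or without the other groups rest on fewer samples. For TCA against PBS, GCA against PBS and GCA against TCA, 0 members were called under each of the alternatives, the replicate block included. No called value changed its direction under an alternative. Total library size moved the median log2 fold change of all genes with Tβ-MCA to 0.05. All members were above 3 counts in every sample, and the lowest, *Trib3*, had well over that. This concerns detection only. With Tβ-MCA against PBS the SE was 0.30 for *Sdf2l1* and 0.24 for *Trib3*, where the median of the members was 0.099. Whether depth limited the calls was not tested.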
